A study of Mus musculus with 4 samples.

Results

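The genes that make, cut and bind hyaluronan were examined in mouse embryonic fibroblasts (MEFs) with and without the tumor suppressor p53. The set had 9 named members: the synthases Has1, Has2 and Has3, the hyaluronidases Hyal1, Hyal2 and Hyal3, the receptor Cd44, Hmmr2, and the binding protein Tnfaip6. They were taken from the array by gene name, and the set was chosen on the rise of Hyal1 in wild-type cells alone, so the pattern of Hyal1 across the conditions is given as a description. Of the 9 members, 8 had a probe, among 31709 genes on the array, and no spot carried the name Hmmr2. Total RNA from p53+/+ (wild-type, WT) and p53-/- MEFs, each left untreated or given the DNA-damaging drug doxorubicin, was hybridized to 4 arrays, 1 per condition. The dose and duration of doxorubicin for the arrays and the age of the embryos are not given in the sources used here, nor is the number of embryos behind each culture. With 1 array per condition, differences between conditions have no replicate check, and no p-value was calculated.

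Hyaluronan is a long, unsulfated sugar chain of the extracellular matrix. The Has enzymes sit in the plasma membrane, join UDP-glucuronic acid and UDP-N-acetylglucosamine, and push the growing chain out of the cell, whereas hyaluronidases of the Hyal family cut it, and lysosomal exoglycosidases take the fragments apart. CD44 is the main cell surface receptor of hyaluronan, and the product of Tnfaip6 (TSG-6) transfers heavy chains of inter-alpha-inhibitor onto it. Fibroblasts are a major source of hyaluronan in connective tissue.

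The probes and promoters of Hyal1 and its close neighbors are shown first, since most of the results concern these genes. The first 30 of the 60 bases of the probes that measured Hyal1, a further Hyal1 transcript, the neighboring gene Naa80 and Hyal2 follow. They lie on the plus strand of chromosome 9 in build mm9, at chr9:107481893-107481952, chr9:107483891-107483950, chr9:107486119-107486178 and chr9:107474949-107475008, in this order. Whether a probe lies in coding or untranslated sequence was not annotated here.
Hyal1: aatagtcacatagtgaatcagagtttagga
ENSMUST00000112387: agcattatggtctacacctttcatcccagc
Naa80: cactagagacatgctatcgagatctgaagg
Hyal2: tgttctaagggggagagaaacatcccctga

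The promoters of 6 members were found in RefSeq (GRCm38.p6), each as 300 bases from 250 before the transcription start to 50 after it. Those of Has2 and Has3 were not in the table used. The 4 that follow are those of the hyaluronidase genes that differed most between the genotypes and of the members that hold a p53 decamer, the unit that is repeated in the p53 response element. Capitals mark that decamer. They lie at chr9:107576700-107576999 (plus strand) for Hyal1, chr9:107568913-107569212 (plus) for Hyal2, chr17:17855139-17855438 (minus) for Has1 and chr2:52037863-52038162 (plus) for Tnfaip6.
Hyal1: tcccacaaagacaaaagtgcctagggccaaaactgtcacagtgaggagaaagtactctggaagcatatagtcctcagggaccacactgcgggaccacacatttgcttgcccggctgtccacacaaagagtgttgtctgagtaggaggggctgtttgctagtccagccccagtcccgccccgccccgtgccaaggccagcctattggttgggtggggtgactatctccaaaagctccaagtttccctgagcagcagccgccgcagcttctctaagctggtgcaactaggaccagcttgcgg
Hyal2: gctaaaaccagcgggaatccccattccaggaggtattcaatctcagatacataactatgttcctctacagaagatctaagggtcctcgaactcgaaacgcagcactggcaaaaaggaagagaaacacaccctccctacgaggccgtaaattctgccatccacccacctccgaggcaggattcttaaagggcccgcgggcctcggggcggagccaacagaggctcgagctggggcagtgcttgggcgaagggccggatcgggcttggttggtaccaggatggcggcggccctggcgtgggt
Has1: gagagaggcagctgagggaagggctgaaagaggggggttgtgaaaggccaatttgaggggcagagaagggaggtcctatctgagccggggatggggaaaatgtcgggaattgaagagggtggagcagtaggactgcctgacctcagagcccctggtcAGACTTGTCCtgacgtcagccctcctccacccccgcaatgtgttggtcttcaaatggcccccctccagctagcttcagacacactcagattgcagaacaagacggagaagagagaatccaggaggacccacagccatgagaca
Tnfaip6: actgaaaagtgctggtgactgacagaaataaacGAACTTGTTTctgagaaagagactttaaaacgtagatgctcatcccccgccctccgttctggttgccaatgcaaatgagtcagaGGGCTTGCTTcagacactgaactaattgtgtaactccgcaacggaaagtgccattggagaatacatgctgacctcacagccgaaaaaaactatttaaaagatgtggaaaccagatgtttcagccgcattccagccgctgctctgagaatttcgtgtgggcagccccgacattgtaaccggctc

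The decamer was searched on both strands without mismatch, and 8.36% of 32851 promoters of this length held it. In Has1 it began 93 bases before the start, and Tnfaip6 held 2, which began 217 and 133 bases before the start. In the windows of Hyal1, Hyal2, Hyal3 and Cd44 these letters were not found. The GC box GGGCGG, on either strand, was in the windows of Hyal1, Hyal2, Hyal3, Cd44 and Tnfaip6 and in 35.7% of all promoters. Hyal1 held 2 of them, 77 and 72 bases before the start, which overlap by 1 base. CCAAT was in Hyal1, Has1 and Tnfaip6 and in 37.4% of all promoters. TATAAA was in none of the 6 windows and in 13.6% of all. The AP-1 motif TGAGTCA was in the Tnfaip6 window, beginning 142 bases before the start, and in 5.2% of all. These are matches of letters, and no binding was measured.

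Every value below is a processed spot signal in arbitrary units, or a log2 ratio of 2 arrays after each was scaled to the 75th percentile of its probes. Signals are given first for WT MEFs, without and with doxorubicin, and then for p53-/- MEFs in the same order. They are not scaled between arrays, so each log2 ratio differs a little from the raw quotient, and signals of different probes are not compared. A gene was measured in a comparison when its probe was well above background on both arrays by the flag of the scanner software, and rose or fell when the ratio reached 2-fold. Repeat spots of 1 probe on an array gave the error of a log2 ratio, an SD of 0.09 for signals of 300 or more and 0.26 for dimmer ones. This SD covers the spots on an array and not the cultures. Among 153 negative controls the brightest signal on each array was 108, 77.5, 250 and 120, so dim values in untreated p53-/- MEFs were the least certain. Trp53 itself had signals of 1228, 3442, 442 and 543, lower in both p53-/- samples. The 11 fibroblast markers were well above background on every array, and their summed level over the 75th percentile was 770, 590, 603 and 499. Of these, 5 fell with doxorubicin in WT and 2 in p53-/- MEFs, where 10.4% and 6.89% of all measured genes fell. Dcn, Lum and S100a4 were lower in untreated p53-/- than in untreated WT MEFs, as were 2.61% of all genes. The part of these markers in the results was not tested. Of 8 leukocyte markers 6, 7, 6 and 5 were well above background, with summed levels of 15.9, 20, 17.9 and 14.7. Those above the brightest negative control were 5, 6, 4 and 4. Itgam was the brightest, with signals of 26264, 31691, 28368 and 28337, whereas Ptprc, at 65.3 to 104, was under that control on every array. Of 4 endothelial markers 2, 3, 2 and 2 were well above background, with summed levels of 3.67, 4.2, 2.92 and 2.33. Cdh5 was not among them on any array, whereas Kdr had signals of 7373, 7434, 5269 and 5330. Of the epithelial markers, Epcam was not well above background on any array, and Krt18 had signals of 9825, 16189, 8345 and 40299. In RNA from whole cultures, fewer cells of a type and less RNA per cell cannot be told apart.

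With doxorubicin 4 members rose in WT MEFs, and none of those measured in p53-/- MEFs did. In WT MEFs 6 members were measured. Has1, Has2, Hyal1 and Hyal2 rose and none fell, and the median log2 ratio over the 6 was 1.25. Over all 17513 genes measured, 11.0% rose, 10.4% fell, and the median was 0.01. In p53-/- MEFs 5 members were measured, none reached 2-fold in either direction, and the median was -0.15, where 9.24% of 16953 genes rose and 6.89% fell. Has1 was not among these 5, since it came above background there only with doxorubicin. By its bounds it was at least 13.4-fold higher with doxorubicin in p53-/- MEFs, or 3.11-fold against the brightest negative control. The count of 0 and the median for p53-/- MEFs thus leave out a member that was higher there. Without doxorubicin, 1 of 5 measured members, Hyal1, was lower in p53-/- than in WT MEFs and none was higher. The shares over 17286 genes were 2.15% higher and 2.61% lower. With doxorubicin, Has1 was higher and Hyal1 and Hyal2 were lower among 6 measured members, against 11.9% higher and 10.3% lower of 17892 genes. The rule that chose the set used the doxorubicin contrasts of Hyal1, so nothing is read from these counts beside the shares. The comparisons also share arrays.

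**Figure D1:**
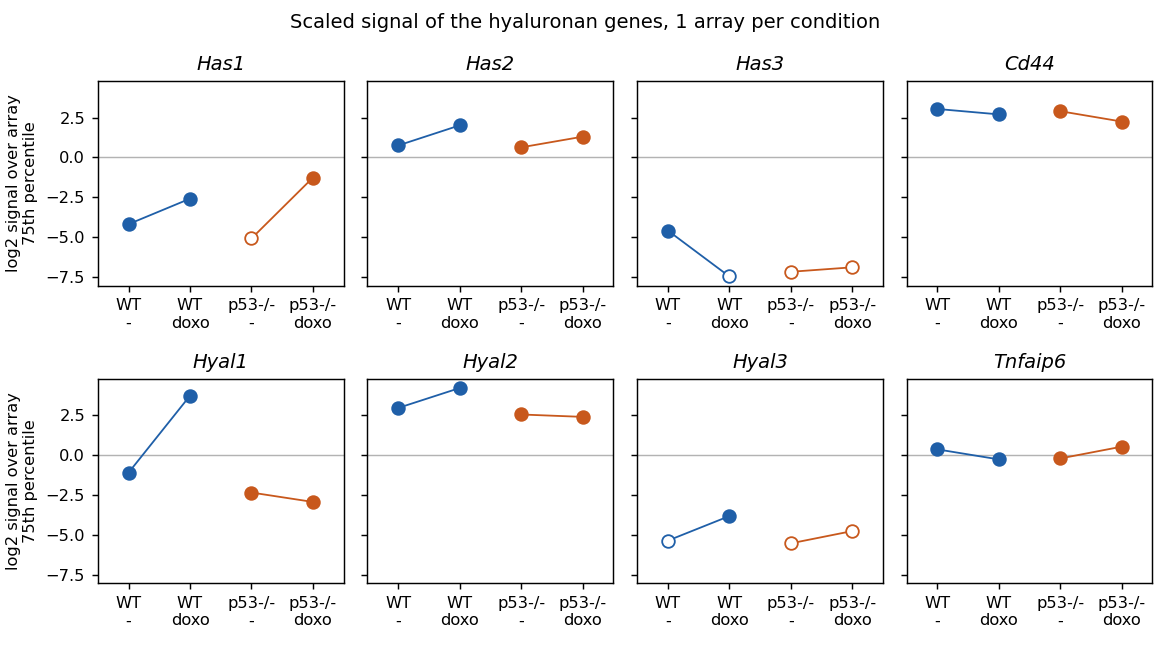
Level of the 8 members with a probe in each of the 4 conditions, as log2 signal over the 75th percentile of the array (vertical axis, 0 at the percentile). Each point is 1 array, open points were not well above background, and lines join the untreated and doxorubicin (doxo) arrays of a genotype. Levels can be compared within a panel only. Hyal1 climbs steeply in WT MEFs (log2 ratio 4.83) and not in p53-/- MEFs (-0.59).

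Among the synthases, Has2, the main hyaluronan synthase of fibroblasts, was well above background on every array. Its signals were 3498, 7332, 2907 and 5965 (probe at chr15:56497356-56497415, minus strand, mm9). Both doxorubicin arrays were above both untreated arrays. The log2 ratio for doxorubicin was 1.26 in WT MEFs, 2.39-fold, and 0.67 in p53-/- MEFs, 1.59-fold. The difference of these ratios was 0.58, with 3039 of 16513 genes larger. Compared with WT MEFs, p53-/- MEFs gave a log2 ratio of -0.13 without doxorubicin and -0.71 with it.

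Has1, which makes hyaluronan at a lower rate than Has2, had signals of 113, 302, 55.1 and 1001 (chr17:17980413-17980472, minus strand, mm9). The value of 55.1, in untreated p53-/- MEFs, was not well above background, and 113 was close to the brightest negative control of its array. In both genotypes the array with doxorubicin was the higher, and the highest of the 4 was that of doxorubicin-treated p53-/- MEFs. The log2 ratio was 1.61 in WT MEFs, 3.04-fold. In p53-/- MEFs Has1 was at least 13.4-fold higher with doxorubicin when the dimmest signal that passed the flag stood in for the untreated array, and 3.11-fold with the brightest negative control in its place. With doxorubicin it was 2.49-fold higher in p53-/- than in WT MEFs (log2 ratio 1.31). The log2 ratio of Has2 in the same comparison was -0.71.

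Has3 was dim throughout, with signals of 86.0, 10.2, 13.0 and 20.3 (chr8:109405354-109405413, plus strand, mm9). It was well above background in untreated WT MEFs alone, and even there lay under the brightest negative control signal of 108. It was at least 1.7-fold lower in doxorubicin-treated WT MEFs against the lowest signal called, and no bound remained against the brightest negative control.

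Hyal1, the lysosomal hyaluronidase, had signals of 969, 24215, 368 and 316, each above the brightest negative control of its array. Treated WT MEFs stood far above the other 3 arrays. The log2 ratio for doxorubicin was 4.83 in WT MEFs, 28.5-fold, with 30 of 17513 genes rising more. In p53-/- MEFs it was -0.59, 1.5-fold lower, with 2686 of 16953 genes smaller. The difference of the ratios was 5.42, and none of the 16513 genes measured throughout exceeded it. Without doxorubicin Hyal1 was already 2.39-fold lower in p53-/- than in WT MEFs (log2 ratio -1.26), and 241 of 17286 genes had a smaller value. With doxorubicin it was 102-fold lower (log2 ratio -6.67), and 6 of 17892 genes had a smaller value.

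Hyal2, a hyaluronidase anchored to the cell surface by a lipid, was well above background on every array, with signals of 16162, 33742, 11023 and 12822. Treated WT MEFs were again the highest, and the p53-/- arrays were close to each other. The log2 ratio was 1.25 in WT MEFs (2.38-fold) and -0.15 in p53-/- MEFs, a difference of 1.40. In all, 683 of 16513 genes had a larger difference. With doxorubicin Hyal2 was 3.5-fold lower in p53-/- than in WT MEFs (log2 ratio -1.81), against -0.41 without it. After scaling to the array median instead, the log2 ratios of Has2 and Hyal2 in WT MEFs were both 0.98, just short of 2-fold.

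Hyal3, a relative of Hyal1 with little known activity of its own, had signals of 50, 128, 40.5 and 88.9 (chr9:107489520-107489579, plus strand, mm9). It was well above background in treated WT MEFs alone. It was at least 2.58-fold higher there than in untreated WT MEFs, and at least 1.92-fold lower in treated p53-/- than in treated WT MEFs. Against the brightest negative control spots these figures were 1.35-fold and 1.43-fold.

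The 3 Hyal genes lie side by side on chromosome 9, and the array held further probes among them. One was designed on a transcript, ENSMUST00000112387, that its description names as hyaluronidase-1. It lies 2.0 kb from the Hyal1 probe and was not taken by the rule, since its name in the file is that of the transcript. Its signals were 5279, 53791, 2734 and 2680. The pattern was that of the Hyal1 probe, with a log2 ratio of 3.54 in WT MEFs, -0.39 in p53-/- MEFs, -0.81 between untreated genotypes and -4.74 between treated ones. In WT MEFs the Hyal1 probe rose 28.5-fold, and the probe of this transcript, with a different sequence and on the same arrays, rose 11.6-fold. The second probe was singled out after its values were seen, so it is no independent check of the first.

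Naa80, an acetyltransferase gene whose product acts on actin, had a probe 4.2 kb from that of Hyal1, with signals of 1223, 16973, 1207 and 1203. The other 3 raw signals were nearly equal, and treated WT MEFs were 15.8-fold above untreated WT MEFs (log2 ratio 3.98). The log2 ratio was -0.37 in p53-/- MEFs. In RefSeq (GRCm38.p6) the gene models of Hyal1, Naa80 and Hyal3 overlap one another and that of Hyal2 overlaps none of them, so signal from transcripts that share sequence in this stretch cannot be told apart here.

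Within 100 kb on either side of the Hyal1 probe, 19 other names were on the array. In WT MEFs 14 were measured, of which 5 rose and 1 fell with doxorubicin (median log2 ratio 0.64, range -2.63 to 3.98), beside 11.0% and 10.4% of all genes. Among the 5 were the further Hyal1 transcript, Naa80, whose gene model overlaps that of Hyal1, and the member Hyal2. Since Hyal1 was chosen for its rise, nothing is read from this count beside the share. In p53-/- MEFs 12 were measured, none rose and 1 fell, with a median of -0.09, beside 9.24% and 6.89% of all genes. Tusc2, 14.6 kb before Hyal1, had 1.61 in WT and 0.91 in p53-/- MEFs. Cacna2d2, which encodes a calcium channel subunit, had 1.62 and 0.29 on its brighter probe. Its other probe had signals of 11.8, 9.16, 11.6 and 170, well above background in treated p53-/- MEFs alone, and did not show the rise in WT MEFs. On the other side of the cluster Sema3b, a secreted semaphorin, fell in both genotypes (-2.63 and -2.17). Ifrd2, between them, had -0.91 and -0.03. The large values were those of Hyal1, its further transcript and Naa80, and the genes to either side had smaller ones.

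**Figure D2:**
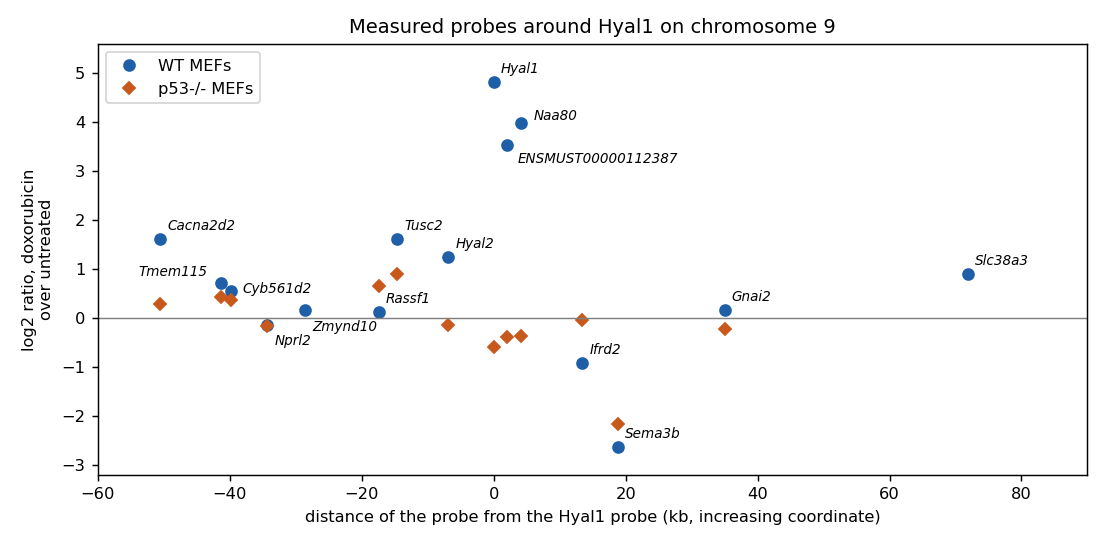
Log2 ratio of doxorubicin over untreated (vertical axis) against the distance of each probe from the Hyal1 probe in kb (horizontal axis, in the direction of rising coordinates), for the probe used for each measured gene. Circles are WT MEFs and diamonds p53-/- MEFs, 1 array per condition. In WT MEFs the 3 highest points are Hyal1 (4.83), Naa80 (3.98) and ENSMUST00000112387 (3.54), all close together.

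Cd44 did not reach 2-fold on any of its 4 probes in any comparison. All 4 lie on the minus strand of chromosome 2. The brightest, nearest the 3' end of the gene (chr2:102651398-102651457, mm9), had signals of 17001, 11828, 14027 and 11481. Here the doxorubicin arrays were a little lower than the untreated ones, by log2 ratios of -0.33 for WT and -0.65 for p53-/- MEFs. The next probe (chr2:102654278-102654337) had signals of 6652, 5348, 5448 and 7975 and log2 ratios of -0.13 and 0.19. A further probe (chr2:102677971-102678030) had signals of 519, 459, 465 and 705 and ratios of 0.01 and 0.24. The dimmest (chr2:102672645-102672704), with signals of 144, 181, 172 and 182, gave 0.52 and -0.28. In p53-/- MEFs the probes thus differed in sign, 2 above 0 and 2 below. The -0.28 of the dimmest probe was close to 1 SD of repeat spots for such signals, 0.26. Its untreated p53-/- signal of 172 was under the brightest negative control of 250, so its sign is uncertain. Cd44 is spliced into many isoforms, and which of them each probe reads was not annotated here.

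Tnfaip6, which cells secrete in inflammation, went in opposite directions in the genotypes without reaching 2-fold. Its brightest probe (chr2:51912073-51912132, plus strand, mm9) had signals of 2657, 1505, 1631 and 3497. The lowest array was treated WT MEFs and the highest treated p53-/- MEFs. The log2 ratio for doxorubicin was -0.63 in WT and 0.74 in p53-/- MEFs, a difference of -1.37, and 988 of 16513 genes had a smaller one. The probe next to it (chr2:51912142-51912201), with signals of 405, 203, 229 and 525, gave -0.81 and 0.84. The dimmest probe (chr2:51911507-51911566), with signals of 153, 140, 163 and 294, gave 0.05 and 0.49. All 3 probes were above 0 in p53-/- MEFs, and the brighter pair were below 0 in WT MEFs. In untreated p53-/- MEFs the signals of the 2 dimmer probes, 229 and 163, were under the brightest negative control of 250. Their ratios in p53-/- MEFs are thus less certain than that of the brightest probe.

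**Figure D3:**
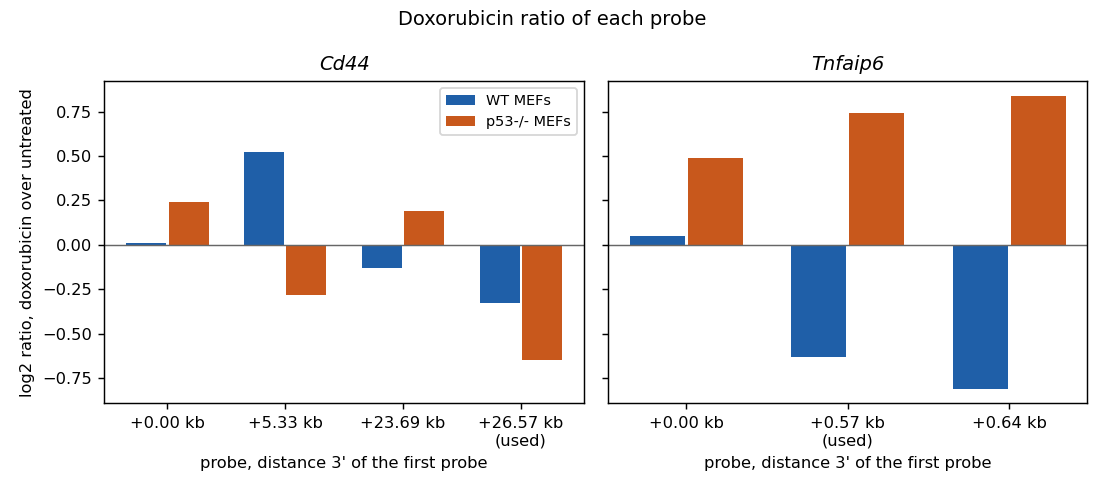
Log2 ratio of doxorubicin over untreated (vertical axis) for each probe of Cd44 and Tnfaip6, ordered along the gene by distance in kb from the most 5' probe. Blue bars are WT and orange bars p53-/- MEFs, 1 array per condition, with no error bar. Cd44 probes differ in sign within a genotype, and for Tnfaip6 the pair at the 3' end reads below 0 in WT and above 0 in p53-/- MEFs.

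Another 47 genes of hyaluronan metabolism and binding were listed, and all had a probe. Of these, 31 were well above background on every array and 10 on none. With doxorubicin 4 of 32 measured rose and 2 fell in WT MEFs (median log2 ratio -0.21). In p53-/- MEFs 2 of 31 rose and 2 fell, with a median of 0.24. Between untreated genotypes 3 of 32 were higher and 2 lower in p53-/- MEFs, and between treated ones 5 of 32 were higher and 3 lower. The shares of measured genes that changed with doxorubicin were near or under those of all genes. They leave out genes that passed the flag on only 1 array of a pair. By their bounds, Bcan and Stab2 were at least 2-fold higher and Cemip lower with doxorubicin in WT MEFs. In p53-/- MEFs Stab2 and Hapln1 were higher and Cemip lower. Against the brightest negative control, Stab2 and Hapln1 fell short of 2-fold there. Between untreated genotypes, where 2.15% of all genes were higher and 2.61% lower, both shares were above those of all genes. These shares rest on the 3 and 2 genes named above as counts. Among them, Esrp2 (higher) and Itih5 (lower) had untreated p53-/- signals of 249 and 159, under the brightest negative control of 250. Between treated ones all genes had 11.9% and 10.3%.

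Outside the Hyal family, Cemip, which encodes a protein needed for hyaluronan breakdown in skin fibroblasts, had signals of 998, 40.2, 287 and 38.7. Both doxorubicin arrays were not well above background. It was at least 19.7-fold lower with doxorubicin in WT MEFs and at least 4.24-fold lower in p53-/- MEFs. Against the brightest negative controls these figures were 11.3-fold and 3.09-fold. Untreated p53-/- MEFs had 3.15-fold less than untreated WT MEFs (log2 ratio -1.66). Cemip2, a related surface protein, had log2 ratios of 0.52 and -0.22. Hyal4, Hyal5, Hyal6 and the sperm hyaluronidase gene Spam1 were not well above background on any array. In treated WT MEFs, then, Hyal1 was higher and Cemip lower than in untreated ones.

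Of the lysosomal exoglycosidase genes that trim hyaluronan fragments, Gusb, which encodes beta-glucuronidase, had signals of 8096, 10497, 6576 and 7542. Its log2 ratios were 0.56 in WT MEFs and -0.17 in p53-/- MEFs. Hexa had 0.02 and -0.26.

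Hmmr, the gene of the hyaluronan receptor RHAMM that also works at the mitotic spindle, had signals of 3969, 1439, 8438 and 14226. The p53-/- arrays were both above the WT arrays. Hmmr fell with doxorubicin in WT MEFs (log2 ratio -1.27) and had 0.39 in p53-/- MEFs. It was 2.34-fold higher in p53-/- MEFs without doxorubicin and 7.43-fold higher with it. Whether the name Hmmr2 was meant for this gene is not stated in the sources used here, so Hmmr was kept out of the counts of members. Lyve1, the lymphatic receptor, was not well above background on any array.

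Ptx3, the pentraxin that builds a hyaluronan matrix together with the product of Tnfaip6, had signals of 7335, 3487, 4368 and 19903. Treated p53-/- MEFs were the highest and treated WT MEFs the lowest, the same order of extremes as for Tnfaip6. The log2 ratio was -0.88 in WT MEFs and 1.82 in p53-/- MEFs, so Ptx3 rose in p53-/- MEFs. Vcan, the large hyaluronan-binding proteoglycan versican, had signals of 7042, 6352, 5523 and 2891. It fell in p53-/- MEFs (-1.30) and had 0.04 in WT MEFs. Itih3, a heavy chain that can be moved onto hyaluronan, rose in WT MEFs (1.99) from a signal of 88.3, under the brightest negative control, to one of 307. Ambp, which encodes the light chain of inter-alpha-inhibitor, rose in both (1.43 and 1.05), and its untreated p53-/- signal of 165 was under the brightest negative control.

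The 10 genes that supply the sugar nucleotides were measured on all arrays, and their median log2 ratio was -0.45 for WT and 0.27 for p53-/- MEFs. Only Gfpt1, the entry enzyme of hexosamine synthesis, changed 2-fold with doxorubicin, and it fell in both genotypes (-1.40 and -1.45). Ugdh, which makes UDP-glucuronic acid, had signals of 12375, 8361, 12053 and 27047. Its ratios were -0.38 in WT and 0.80 in p53-/- MEFs, and with doxorubicin it was 2.43-fold higher in p53-/- than in WT MEFs.

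Of the 6 genes for partners and splicing of CD44, Ezr, which encodes the linker ezrin, had signals of 2717, 1445, 2464 and 5030 and log2 ratios of -0.72 and 0.67. It was 2.62-fold higher in treated p53-/- than in treated WT MEFs. Esrp2, an epithelial splicing regulator, had signals of 118, 1140, 249 and 342. It rose in WT MEFs (3.46, 11-fold) and had 0.10 in p53-/- MEFs, where its untreated signal was just under the brightest negative control. The epithelial markers as a list had a summed level over the 75th percentile of 5.71, 9.98, 5.34 and 17.9, with 3, 4, 3 and 4 of 5 well above background. Their part in the Esrp2 values was not tested.

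**Figure D4:**
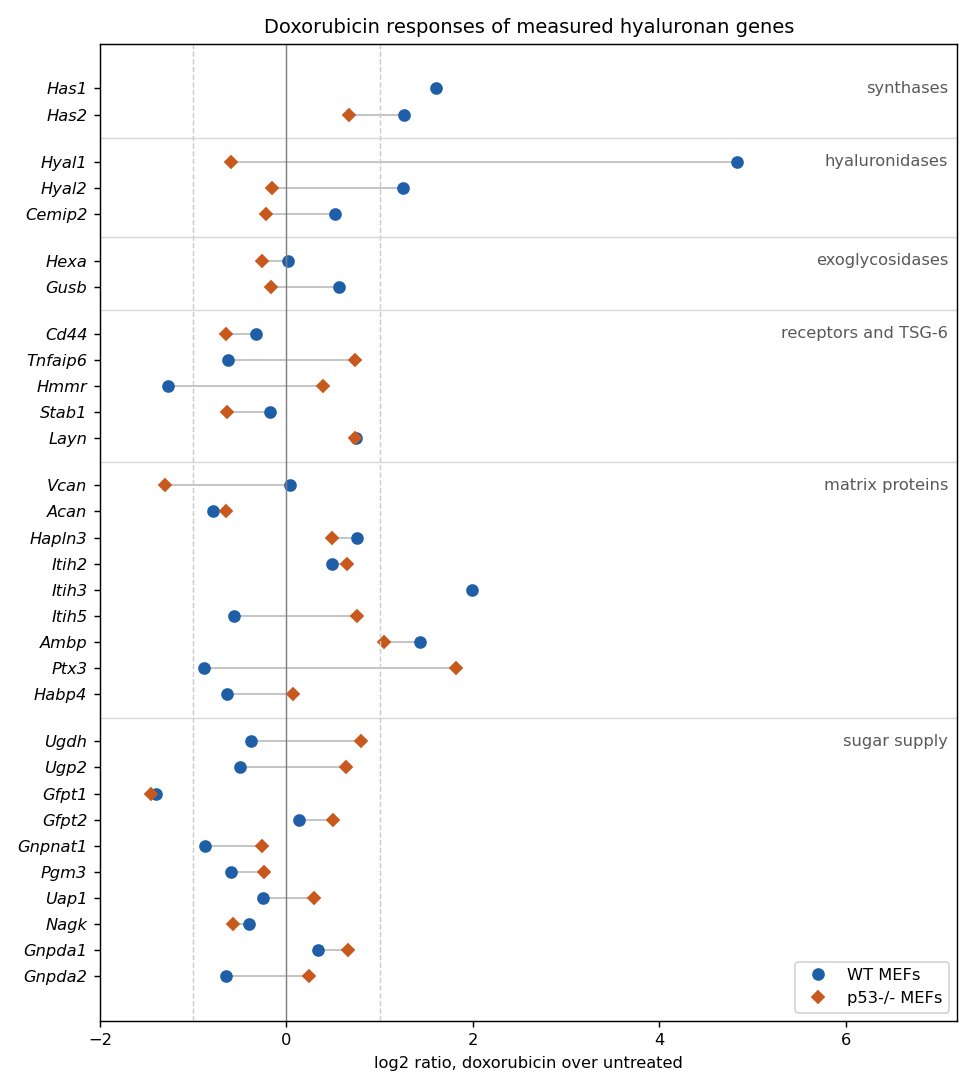
Log2 ratio of doxorubicin over untreated (horizontal axis) for the hyaluronan genes measured in at least 1 genotype, grouped by role, without the partners of CD44 and listed genes whose single values are left out. Circles are WT and diamonds p53-/- MEFs, 1 array per condition, joined where both were measured, and dashed lines mark 2-fold. Hyal1 has the longest line, from -0.59 to 4.83, and Ptx3 the longest in the opposite sense, from -0.88 in WT to 1.82 in p53-/- MEFs.

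The genes whose profile over the 4 arrays was most like that of Hyal1 were found among 16513 genes well above background on all of them. Likeness was the root mean square difference of the log2 levels after each gene was centered on its own mean. The nearest was Matn4, a matrix protein gene of the matrilin family, at 0.40, with signals of 990, 20379, 601 and 482. Its log2 ratios were 4.55 (WT) and -0.68 (p53-/-). Next came Itgb4, the integrin beta 4 gene, at 0.42 (log2 ratios 4.68 and 0.21), and Celf5, an RNA-binding protein gene, at 0.45 (3.66 and -0.14). Slc18a3, a vesicular transporter gene, was at 0.50 (4.96 and 0.01), and Kcnj4, a potassium channel gene, at 0.52 (3.83 and -0.19). In untreated p53-/- MEFs the signals of Itgb4, Celf5 and Slc18a3 were under the brightest negative control, so their low points carry background. Slc18a3 was under that control in treated p53-/- MEFs too (99.5 against 120), so its ratio of 0.01 there is uncertain. This likeness rests on 4 arrays and is dominated by 1 high array. Of the other measured members, Hyal2 had the signs of Hyal1 in both genotypes, though its -0.15 in p53-/- MEFs was under 2 SD of repeat spots.

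**Figure D5:**
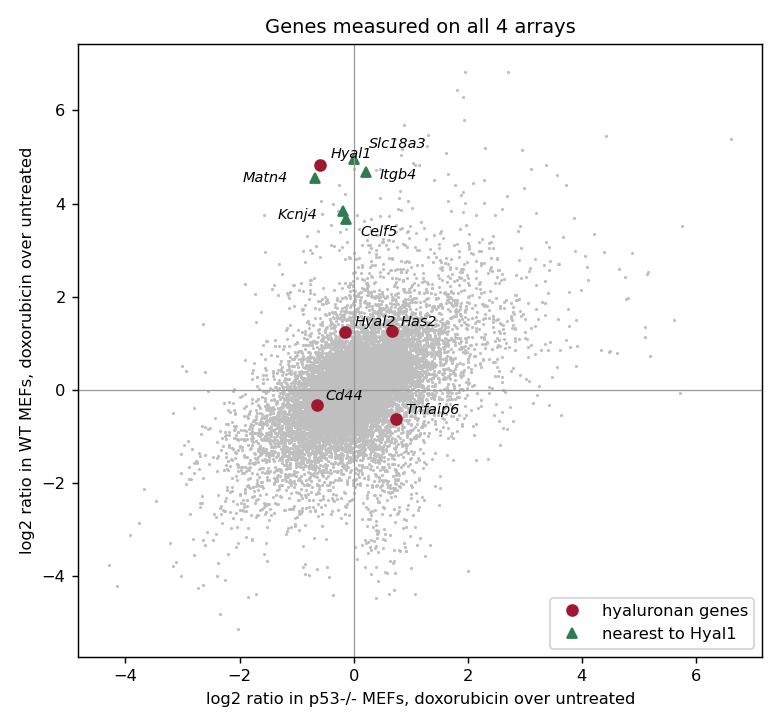
Log2 ratio of doxorubicin over untreated in WT MEFs (vertical axis) against that in p53-/- MEFs (horizontal axis) for the 16513 genes well above background on all 4 arrays, 1 array per condition. Gray points are all genes, circles the measured hyaluronan members and triangles the 5 genes nearest to Hyal1 in profile. Hyal1, at 4.83 and -0.59, lies high with the triangles, whereas Hyal2, Has2, Cd44 and Tnfaip6 lie within the cloud.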

How the data were processed

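RNA of the 4 samples (200 ng each) was labeled with Cy3 and hybridized by the authors to 1-color Agilent arrays on 1 slide. The deposited intensity of each spot is the processed signal of Agilent Feature Extraction (10.7.3.1, per the labels), corrected by that software for background and not normalized between arrays. The deposited mean and local background intensity served for 1 alternative, and the deposited 0 or 1 flags (other values) mark outlier, saturated and well above background spots. A further deposited table of intensity values equaled the processed signals at every spot. Positions are those of the files (mm9).

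Outlier spots (145 to 168 per array) were left out, no spot was saturated, the log2 signals of a probe were averaged, and the 75th percentile of 39429 probes was subtracted. It lay at signals of 1819 to 2421, and 56.9% to 62.9% of probes were well above background. The probe with the highest mean stood for a gene. Where only 1 array of a pair passed the flag, a bound was taken from the other, as its dimmest signal that passed (44.3 to 87.1), or the probe's own signal where that was higher, and also as its brightest negative control. Precision is limited by the number of arrays. RefSeq tables (GRCm38.p6) gave names to 26055 probes by accession, 3195 by symbol and 930 by synonym, and 9249 kept the name in the file.

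The members, lists and tests were chosen with earlier results of these data known. Named genes were the members, listed genes, and the 5 genes nearest to Hyal1 in profile. Single values of some listed genes are left out here, and counts and medians include them. The transcript ENSMUST00000112387, Slc38a3 and Gnai2 came from the window around Hyal1, and the first was singled out after its values were seen. Alternatives were the array median, quantile normalization, normexp (limma 3.58.1, R 4.3.3, offset 50), other filters on dim probes, the mean of the probes, the deposited table, and 1.5-fold and 3-fold thresholds. Each other probe of Cd44 and Tnfaip6 was added after seeing the data. Scaling and ratios were tried on arrays simulated from the untreated WT array, with the same flags on each. Differences in flags between arrays, and the bounds, were not tested in this way. Python 3.11.15 with numpy 2.4.6 and pandas 2.3.3 was used.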

Additional observations from a re-analysis of the deposited data

Results flagged for a closer look

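Among the members and the 47 other hyaluronan genes, 4 had opposite responses. In these the doxorubicin ratio lay at least 1.5-fold above 1 in one genotype and at least 1.5-fold below 1 in the other, with 1 array per condition, and the difference was not tested. For Hyal1 the WT minus p53-/- difference of log2 ratios was 5.42 (4.83 and -0.59), a gene chosen for this pattern. For Tnfaip6 it was -1.37 (-0.63 and 0.74), for Ptx3 -2.71 (-0.88 and 1.82) and for Ezr -1.39 (-0.72 and 0.67). The share of all genes with such opposite responses was not counted, so nothing is read from the number of genes. In p53-/- MEFs Hyal1 had -0.52 with normexp, and Tnfaip6 had 0.44 with the array median. Both values fall short of 1.5-fold.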

How the results depend on the processing

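The Hyal1 difference between genotypes was 5.24 to 5.47 under the alternatives run, all of which kept the same Hyal1 probe. With the probe of the further Hyal1 transcript, ENSMUST00000112387, the difference was 3.93, outside this range. Scaling to the array median shifted the all-gene median to -0.27 (WT) and -0.30 (p53-/-). It turned the split of genes that rose and fell from 1930 and 1828 to 1319 and 2792 in WT MEFs, and from 1567 and 1168 to 955 and 2098 in p53-/- MEFs. With it the Hyal1 ratio was 4.56 in WT and -0.88 in p53-/- MEFs, and 2 members rose in WT MEFs in place of 4. Quantile normalization gave -0.73 for Hyal1 in p53-/- MEFs. With no filter on dim probes 1 member fell in WT MEFs and 1 rose in p53-/- MEFs, and 2 in place of 1 were lower in untreated p53-/- MEFs. At 1.5-fold 1 fell in WT MEFs, 2 rose and 2 fell in p53-/- MEFs, and 2 were higher in treated p53-/- MEFs. At 3-fold 2 rose in WT MEFs, 0 were lower in untreated and 0 higher in treated p53-/- MEFs. When a gene had to be well above background on all 4 arrays, 0 were higher in treated p53-/- MEFs, as Has1 was no longer included.

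These alternatives gave 198 single values of members, without the Hyal1 ratios for doxorubicin in each genotype. Of the 198, 175 stayed within the spread of repeat spots, 23 moved further and 2 changed sign, both of Cd44 with the mean of its probes. The filters and the deposited table could not change a ratio, nor could the mean of the probes for a gene with 1 probe. Many of the 175 were thus fixed in advance. The Hyal1 ratios left out moved further with the array median in both genotypes and with quantile normalization in p53-/- MEFs. Other probes of Cd44 and Tnfaip6, chosen after seeing the data, gave 20 values, of which 9 changed sign. No called value reversed. The slide was not used as a block, because all arrays were on 1 slide, and leaving out an array leaves no comparison. No paired analysis was possible because each condition had 1 array. Signals near or under the brightest negative control limit Has1, Has3 and Hyal3, the 2 dimmer probes of Tnfaip6 and the dimmest probe of Cd44.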

Other observations

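Some hyaluronan-binding genes came above background in 1 or both treated samples. Bcan, the brain proteoglycan brevican, had signals of 58.0, 1005, 48.7 and 104, and was well above background in treated WT MEFs alone. It was at least 19.8-fold higher there than in untreated WT MEFs and at least 12.9-fold lower in treated p53-/- than in treated WT MEFs. Against the brightest negative controls these figures were 10.6-fold and 11.2-fold. Stab2, a scavenger receptor that clears hyaluronan from the blood, had 12.8, 261, 14.5 and 383. It was at least 5.24-fold higher with doxorubicin in WT and at least 5.13-fold higher in p53-/- MEFs, or 2.74-fold and 1.19-fold against the brightest negative controls. Hapln1, a link protein that ties hyaluronan to proteoglycans, had 30, 51.9, 49.6 and 344. In treated p53-/- MEFs it was at least 4.98-fold higher than in treated WT MEFs, or 3.34-fold against the brightest negative control.

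Layn, the receptor layilin, had signals of 1046, 1540, 481 and 1033. Its log2 ratios for doxorubicin were nearly equal, 0.75 in WT and 0.74 in p53-/- MEFs, and those of p53-/- over WT MEFs were -0.98 without and -0.99 with doxorubicin. Acan, the proteoglycan aggrecan, was higher in p53-/- MEFs in both conditions (log2 ratios 1.17 and 1.31), at signals of 206, 104, 421 and 344.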
